A study of Mus musculus with 14 samples.

Results

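The platelet-derived growth factor (PDGF) family in the mouse comprises 4 ligand genes, Pdgfa, Pdgfb, Pdgfc and Pdgfd, and 2 receptor genes, Pdgfra and Pdgfrb. They were found by gene symbol among the 52636 genes of the count table, and all 6 matched and passed the filter on low counts. RNA was sequenced from cells that had been isolated by flow sorting from the dermal wound bed of male C57/BL6 mice, aged 7 weeks, on day 5 after injury. This gave 14 libraries. The 7 groups held 2 libraries each. A first set of 6 libraries held AdipoqTraced cells (named GFP in the library descriptions), CD26 cells and Adipocyte cells. A second set of 8 libraries, which the labels mark as reanalysed from an earlier series, held CD29, DN, AP_CD9High and AP_CD9Low cells. CD26 is the surface protein encoded by Dpp4, CD29 the integrin subunit encoded by Itgb1, and CD9 a tetraspanin. The file headers call the CD29 cells CD29-high and the DN cells CD29-low, and the labels do not spell out AP or DN. The sources used here do not give the tracing allele behind the AdipoqTraced cells, its efficiency or the sorting gates. No group occurred in both sets, so set and group cannot be told apart and every comparison stayed within a set. Nothing in the labels ties the replicates to separate animals. The p-values therefore reflect the spread among these samples alone, and that spread may be technical.

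PDGF ligands are secreted dimers. Those made from Pdgfa and Pdgfb are cut inside the cell by furin-type proteases, whereas those made from Pdgfc and Pdgfd are secreted in a latent form whose CUB domain is removed outside the cell, by tissue plasminogen activator (Plat) for Pdgfc and chiefly by urokinase (Plau) for Pdgfd. The receptors are tyrosine kinases that pair up when a ligand binds. The alpha receptor, from Pdgfra, binds the A, B and C chains, and the beta receptor, from Pdgfrb, binds the B and D chains. In skin, Pdgfra marks dermal fibroblasts and adipocyte precursors, Pdgfrb marks pericytes and many mesenchymal cells, and platelets and macrophages are known sources of PDGF in wounds. In mouse dermis, PDGFA is known to maintain adipocyte stem cells.

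Promoters are shown for Pdgfa, the ligand with the smallest adjusted p, and Pdgfc, the most abundant ligand RNA per kilobase in most libraries. That of Pdgfra is shown because this receptor was lower in both Adipocyte libraries than in the rest of the first set. RefSeq promoter windows of build GRCm38.p6 matched 4 of the 6 members, Pdgfa, Pdgfc, Pdgfd and Pdgfra. Pdgfb and Pdgfrb had no window used here. The 250 bases upstream of each RefSeq start were searched on both strands for the GC box GGGCGG, the EGR1 motif GCGNGGGCG, the AP-1 motif TGANTCA, the TATA box TATAAA, the CCAAT box CCAAT and the CArG box by name. The parts shown leave out annotated exons, and any match is in capitals.
Pdgfa, chr5:138994282-138994398, minus strand, GC box in capitals: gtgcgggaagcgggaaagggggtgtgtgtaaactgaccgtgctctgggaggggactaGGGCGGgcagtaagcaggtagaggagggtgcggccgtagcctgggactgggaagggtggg
Pdgfc, chr3:81036166-81036415, plus strand, CArG box in capitals: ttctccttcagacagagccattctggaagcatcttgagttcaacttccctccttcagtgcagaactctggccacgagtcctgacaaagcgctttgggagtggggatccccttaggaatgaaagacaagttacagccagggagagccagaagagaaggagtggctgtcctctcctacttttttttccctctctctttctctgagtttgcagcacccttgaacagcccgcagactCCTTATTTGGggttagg
Pdgfra, chr5:75152001-75152250, plus strand, none of the searched motifs: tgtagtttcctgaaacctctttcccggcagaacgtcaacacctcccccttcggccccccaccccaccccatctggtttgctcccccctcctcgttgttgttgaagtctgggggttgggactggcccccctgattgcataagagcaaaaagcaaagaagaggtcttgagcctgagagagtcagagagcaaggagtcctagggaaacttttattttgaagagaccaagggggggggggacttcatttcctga
The Pdgfa window shown held a GC box at -60 to -55 from the start, and 32.7% of the 32851 promoter windows in the reference table held that motif. A window for a Pdgfa start further upstream held 2 GC boxes, at -93 to -88 and -86 to -81. The longest part of that window outside annotated exons ran from -250 to -94, and neither box lay in it. The Pdgfc window held a CArG box, which is read by serum response factor, at -17 to -8, and 1.47% of all windows held one. The Pdgfd window held a TATA box at -160 to -155, as did 12.4% of all windows. The Pdgfra window matched none of the motifs listed. These matches are descriptions of letters and show neither binding nor control.

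Total counts were 13760557 to 22218364 per library. Mitochondrial transcripts made up 79.07% and 84.79% of the Adipocyte libraries, which left 2952186 and 3255546 counts outside the mitochondrial genome there, against 10081318 to 22133663 in the other 12. Levels are CPM, the count relative to library size, after TMM scaling, a method that adjusts for such differences in composition, and levels of different genes are compared only per kilobase of exon. Without TMM the median log2 difference over all genes became 2.25 in AdipoqTraced against Adipocyte (0.19 with TMM) and 1.95 in CD26 against Adipocyte (0.24 with TMM). It became 0.27 in AdipoqTraced against CD26 (0 with TMM), 0.39 in CD29 against AP (0.1 with TMM) and 0.21 in DN against AP (0 with TMM). Summed CPM of 6 adipocyte markers, Adipoq and Plin1 among them, was 13537.7 and 7780.7 in Adipocyte libraries and 72.2 to 304 in the other 12. Most of the sum in those 12 was Lpl, at 72.2 to 298 CPM, while Adipoq stood at 0 to 15.3 CPM and Plin1 at 0 to 10.9 CPM. Summed CPM of 6 fibroblast markers was 6567.2 and 13890.6 in Adipocyte libraries and at least 47342.5 in every other library. In bulk samples, fewer cells of a type and less RNA per cell cannot be told apart.

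Each member was tested in 7 comparisons, and a call was an adjusted p under 0.05 from the edgeR quasi-likelihood test with Benjamini-Hochberg adjustment over all 18394 genes tested. Of the 42 tests, 9 were called, and all 9 were higher in the group named first. AdipoqTraced against Adipocyte gave 2 of 6 members, where 10.4% of all genes were called, and 4 of 6 members did not overlap between the groups, against 45.2% of all genes. CD26 against Adipocyte gave 2 of 6, with 10.6% of all genes called, and 4 without overlap, against 50.9%. AdipoqTraced against CD26 gave 1 of 6, with 3.86% of all genes called, and 5 without overlap, against 41.4%. CD29 against AP, the mean of AP_CD9High and AP_CD9Low, gave 2 of 6, with 4.39% of all genes called, and 4 without overlap, against 23.9%. DN against AP gave 2 of 6, with 6.75% of all genes called, and 3 without overlap, against 26.7%. CD29 against DN gave 0 of 6 with 0.0598% of all genes called, with 1 member at an unadjusted p under 0.05. DESeq2 called 0 of the 6 members there, beside 145 of 15377 genes. AP_CD9High against AP_CD9Low also gave 0 of 6, with 0.0217% of all genes called and 1 member at an unadjusted p under 0.05. DESeq2 called 0 of the 6 members there too, beside 91 of 15377 genes. In each of these last comparisons 3 of 6 members did not overlap, against 36.6% and 27% of all genes.

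**Figure D1:**
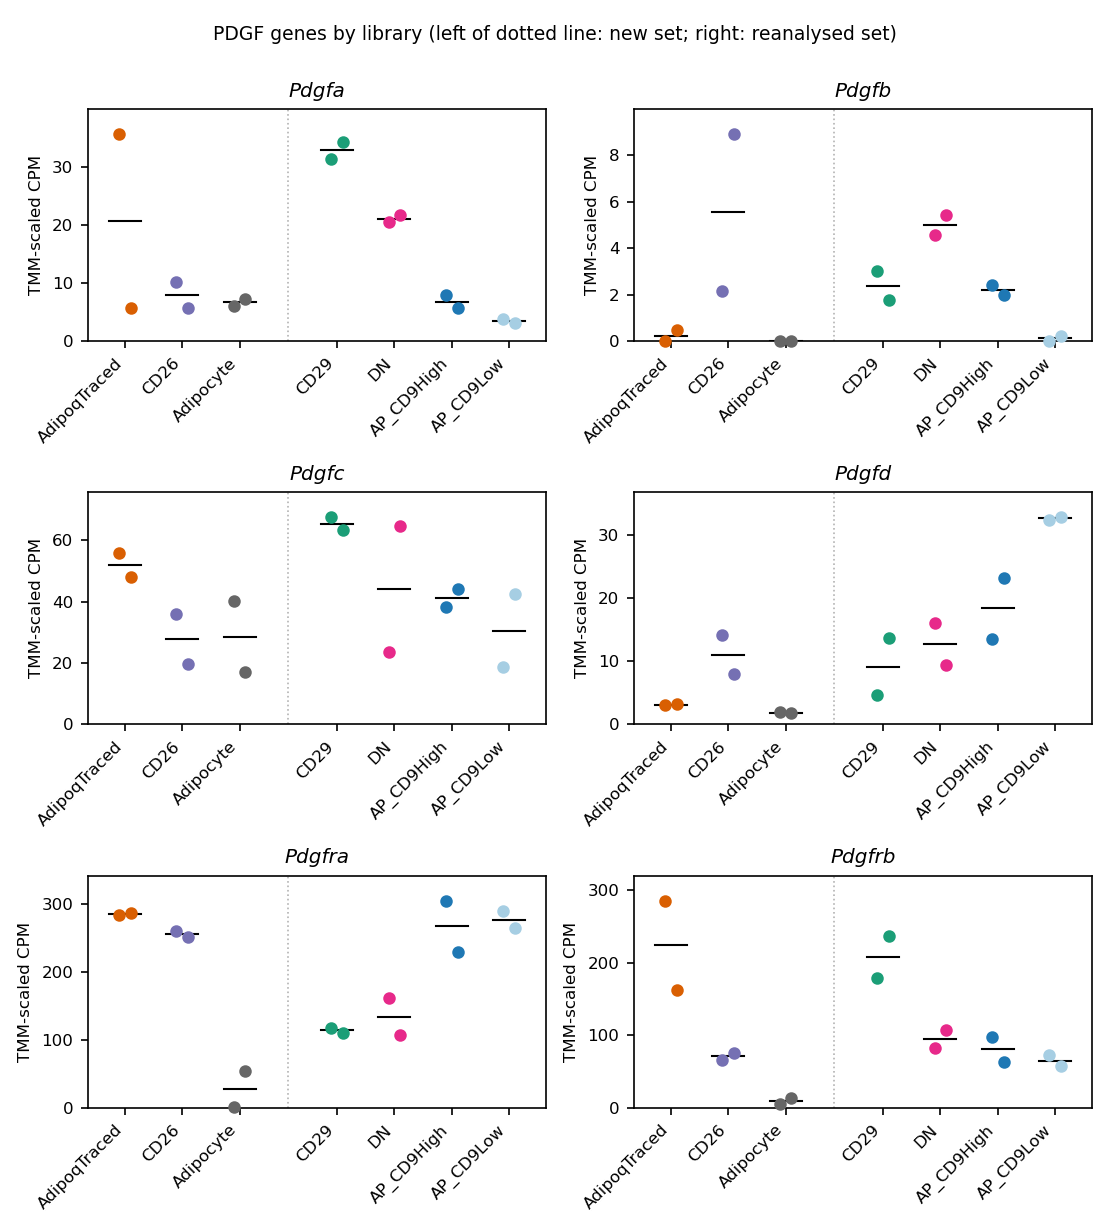
Level of each PDGF ligand and receptor in TMM-scaled CPM (y axis, one panel per gene with its own scale starting at 0) in the 14 libraries, grouped along the x axis. Points are single libraries and bars are group means; Pdgfa is high in 1 AdipoqTraced library, at 35.7 CPM, and in both CD29 libraries, at 31.4 and 34.3 CPM, and Pdgfra is lowest in Adipocyte, at 1.17 and 53.1 CPM.

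Among the ligands, Pdgfa, whose product signals through the alpha receptor, separated the sorted groups of the second set most clearly. Pdgfa lies on mm10 chromosome 5 from 138976014 to 138997370, minus strand. It stood at 31.4 and 34.3 CPM in CD29, 20.5 and 21.7 CPM in DN, 7.98 and 5.6 CPM in AP_CD9High and 3.82 and 3.03 CPM in AP_CD9Low. The libraries of these groups did not overlap, and the order ran CD29, DN, AP_CD9High, AP_CD9Low. Pdgfa was higher in CD29 than in AP by 2.76 on the log2 scale (SE 0.48, adjusted p = 0.0021) and higher in DN than in AP by 2.13 (SE 0.5, adjusted p = 0.0132). The CD29 call was kept in all 14 alternative settings run. The DN call was lost in 6 of 14, with adjusted p up to 0.107, among them without DN replicate 1, DN replicate 2, AP_CD9High replicate 2 or AP_CD9Low replicate 2. The difference between CD29 and DN was 0.64 (SE 0.51, adjusted p = 0.834), and that between AP_CD9High and AP_CD9Low was 0.99 (SE 0.73, adjusted p = 1).

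Markers of other cells moved with these groups. Of 8 macrophage markers, 7 were called higher in both CD29 and DN than in AP, with sums of 2705.6 to 3138.2 CPM in CD29, 6864.8 to 7370.1 CPM in DN, 1348.2 to 1633.2 CPM in AP_CD9High and 708 to 780 CPM in AP_CD9Low. Pericyte and smooth muscle markers were called higher in 6 of 8 cases in CD29 against AP, and 4 were called higher and 2 lower in DN. Mast cell markers were called higher in 4 of 6 cases in CD29 and 5 of 6 in DN, with sums of 36 to 59.3 CPM in CD29, 287 to 374 CPM in DN and 0 to 8.86 CPM in AP. In DN, 3 of 6 keratinocyte markers (80.7 and 1424 CPM against 6.19 to 27.3 CPM in AP) and 3 of 4 skeletal muscle markers (113 and 5.16 CPM against 0.422 to 3.75 CPM in AP) were also called higher. The part of these cells in the Pdgfa difference was not tested. An antisense gene, 6330403L08Rik, overlaps Pdgfa and had 193 and 105 counts in CD29 beside 1066 and 843 for Pdgfa. It had 12 and 11 counts in AP_CD9Low beside 102 and 79. The counting is not stated to use strand, so reads of these neighbours cannot be told apart where they overlap.

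In the first set, the AdipoqTraced libraries disagreed on Pdgfa. The level was 35.7 and 5.66 CPM in AdipoqTraced, 10.1 and 5.6 CPM in CD26, and 6.11 and 7.23 CPM in Adipocyte. The groups overlapped, since only AdipoqTraced replicate 1 stood above the rest. The log2 difference between AdipoqTraced and Adipocyte was 1.62 (SE 0.88, adjusted p = 0.305), and without AdipoqTraced replicate 1 it was -0.24. The difference between AdipoqTraced and CD26 was 1.38 (SE 0.65, adjusted p = 0.252), and -0.52 without that library. Without AdipoqTraced replicate 2 both were called, at 2.41 (adjusted p = 0.0205) against Adipocyte and 2.16 (adjusted p = 0.0214) against CD26. CD26 and Adipocyte differed by 0.24 (SE 1, adjusted p = 0.946). The antisense neighbour had 112 and 21 counts in AdipoqTraced beside 554 and 88 for Pdgfa, 85 and 63 in CD26 beside 169 and 81, and 96 and 0 in Adipocyte beside 26 and 37. Its part in these Pdgfa levels was not tested.

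Pdgfb, whose product binds both receptors and which endothelial cells, platelets and macrophages are known to make, was the sparsest member. It lies on mm10 chromosome 15 from 79995874 to 80014977, minus strand. Counts were 102 and 43 in CD29, 141 and 130 in DN, 63 and 51 in AP_CD9High and 0 and 6 in AP_CD9Low. In CPM this was 3.01 and 1.75 in CD29, 4.57 and 5.41 in DN, 2.41 and 1.96 in AP_CD9High and 0 and 0.23 in AP_CD9Low. DN lay above every other group of the second set, AP_CD9Low lay below, and CD29 overlapped AP_CD9High. Pdgfb was higher in DN than in AP by 3.28 (SE 0.95, adjusted p = 0.049), a call that was lost in 11 of 14 alternative settings, with adjusted p up to 0.396. Leaving out any 1 of the 6 libraries of that comparison was enough to lose it, at log2 differences of 2.77 to 5.4. Among platelet markers, summed at 495 and 559 CPM in DN and 64.9 to 167 CPM in AP, 2 of 4 tested were called higher and 1 lower in DN. The sum was nearly all Pf4, at 470 and 533 CPM in DN and 55.5 to 134 CPM in AP. Itga2b stood at 2.95 and 0.416 CPM in DN and 8.05 to 23.0 CPM in AP, and Gp9 was at 0 in both groups. Its macrophage markers are given above, and 5 of 8 endothelial markers were called higher in DN than in AP, at 61.7 and 150 CPM against 26.4 to 47.7 CPM. The part of these cells in the Pdgfb difference was not tested.

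In the first set, Pdgfb was seen chiefly in CD26. Counts were 0 and 7 in AdipoqTraced, 36 and 129 in CD26, and 0 and 0 in Adipocyte, or 0 and 0.45 CPM, 2.15 and 8.92 CPM, and 0 and 0 CPM. CD26 lay above both other groups without overlap. Against a floor of 3 counts over the Adipocyte group, 0.32 CPM, the CD26 mean of 5.54 CPM was at least 17.3-fold higher, and the lower CD26 library was at least 6.73-fold higher, but the test did not call the difference (adjusted p = 0.234). AdipoqTraced and CD26 differed by -4.54 (SE 1.55, adjusted p = 0.119), a fitted value that rests on 7 counts in AdipoqTraced. DESeq2 called both differences, with adjusted p of 0.00493 and 0.0439. Summed endothelial markers were 18.5 and 47.5 CPM in AdipoqTraced, 92.1 and 130 CPM in CD26, and 23 and 33.2 CPM in Adipocyte. Macrophage markers summed to 2751.6 and 1899.9 CPM in AdipoqTraced, 3578.5 and 2339 CPM in CD26, and 744 and 1670.8 CPM in Adipocyte. Platelet markers summed to 92.9 and 120, 168 and 106, and 18.3 and 15.2 CPM in the same order. In CD26 against Adipocyte, 1 of 8 endothelial, 4 of 8 macrophage and 2 of 4 tested platelet markers were called higher and 0 lower. The part of these cells was not tested.

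Pdgfc, the latent ligand of the alpha receptor, was not called in any comparison. It lies on mm10 chromosome 3 from 81036416 to 81214040, plus strand. It stood at 56.0 and 48.0 CPM in AdipoqTraced, 35.9 and 19.6 CPM in CD26, and 40.2 and 17.0 CPM in Adipocyte. AdipoqTraced lay above the other groups, which overlapped, and its difference from Adipocyte and from CD26 was 0.9 each (SE 0.58 and 0.5, adjusted p = 0.414 and 0.338). In the second set it stood at 67.5 and 63.2 CPM in CD29, 23.6 and 64.8 CPM in DN, 38.3 and 44.2 CPM in AP_CD9High and 18.5 and 42.4 CPM in AP_CD9Low. CD29 had both libraries high, DN and AP_CD9Low each had 1 high and 1 low library, and the groups overlapped in part. The CD29 difference from AP was 0.88 (SE 0.39, adjusted p = 0.3).

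Pdgfd, the latent ligand of the beta receptor, had another order. It lies on mm10 chromosome 9 from 6168584 to 6378850, plus strand. It stood at 4.57 and 13.7 CPM in CD29, 16.1 and 9.49 CPM in DN, 13.6 and 23.2 CPM in AP_CD9High and 32.5 and 32.9 CPM in AP_CD9Low. AP_CD9Low lay above all other libraries, while the remaining groups overlapped. The differences missed the threshold, at -1.47 in CD29 against AP (SE 0.44, adjusted p = 0.0669), -0.92 in DN against AP (SE 0.41, adjusted p = 0.244) and -0.83 in AP_CD9High against AP_CD9Low (SE 0.45, adjusted p = 1). Without CD29 replicate 2 the CD29 difference was -2.41 with an adjusted p of 0.0414. In the first set Pdgfd stood at 3.09 and 3.15 CPM in AdipoqTraced, 14.2 and 7.96 CPM in CD26, and 1.88 and 1.76 CPM in Adipocyte. The CD26 libraries were the highest, without overlap, and the differences were -1.84 in AdipoqTraced against CD26 (SE 0.71, adjusted p = 0.155) and 2.62 in CD26 against Adipocyte (SE 1.14, adjusted p = 0.176). DESeq2 called both, at adjusted p of 0.0328 and 0.00209, and the older quasi-likelihood method called the second, at 0.0346.

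**Figure D2:**
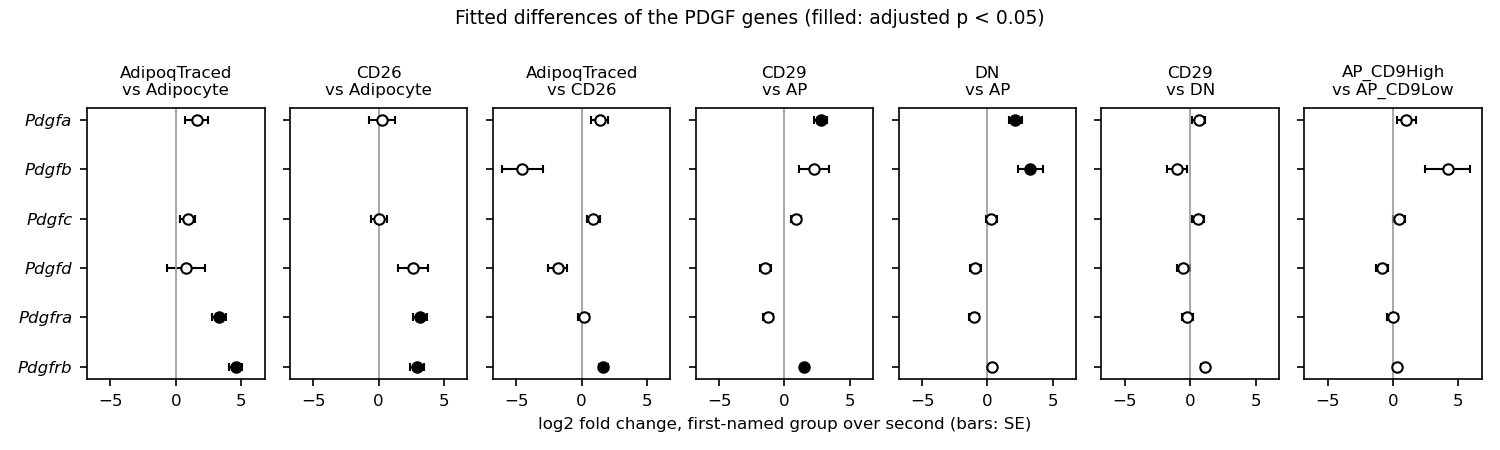
Log2 fold change of each member (x axis) in each comparison, with bars of 1 standard error; filled points passed an adjusted p of 0.05 in the edgeR test. The largest called values are those of Pdgfrb at 4.59 and Pdgfra at 3.32 in AdipoqTraced against Adipocyte; Pdgfb against Adipocyte is left out because the Adipocyte libraries held 0 counts.

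Both receptors were higher in the AdipoqTraced and CD26 cells than in Adipocyte cells. Pdgfra, on mm10 chromosome 5 from 75152292 to 75198215, plus strand, stood at 284 and 286 CPM in AdipoqTraced, 260 and 251 CPM in CD26, and 1.17 and 53.1 CPM in Adipocyte. The Adipocyte libraries were far apart from each other and below all others. Pdgfra rose by 3.32 in AdipoqTraced against Adipocyte (SE 0.53, adjusted p = 0.000403) and by 3.16 in CD26 against Adipocyte (SE 0.53, adjusted p = 0.00063). The size depended on the Adipocyte library used, with log2 differences of 2.49 to 7.97 for AdipoqTraced and 2.37 to 7.85 for CD26 when 1 library was left out. Both calls were lost under the older quasi-likelihood method of edgeR, with adjusted p of 0.0626 and 0.0737. The Adipocyte library with more Pdgfra, replicate 2, also had more fibroblast marker RNA, 13890.6 CPM against 6567.2 CPM in replicate 1. Its sums were also higher for macrophage (1670.8 against 744 CPM), keratinocyte (119 against 53.1 CPM) and skeletal muscle markers (357 against 126 CPM). They were lower for adipocyte (7780.7 against 13537.7 CPM) and pericyte and smooth muscle markers (325 against 483 CPM). The part of these cells in the Pdgfra levels was not tested. All 6 fibroblast markers were called higher in both AdipoqTraced and CD26 than in Adipocyte. AdipoqTraced and CD26 differed in Pdgfra by 0.16 (SE 0.42, adjusted p = 0.892).

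Pdgfrb, on mm10 chromosome 18 from 61045150 to 61085061, plus strand, stood at 286 and 163 CPM in AdipoqTraced, 66.2 and 75.5 CPM in CD26, and 4.46 and 13.5 CPM in Adipocyte. The groups did not overlap, with AdipoqTraced highest and Adipocyte lowest. Pdgfrb rose by 4.59 in AdipoqTraced against Adipocyte (SE 0.49, adjusted p = 5.79e-06) and by 2.93 in CD26 against Adipocyte (SE 0.51, adjusted p = 0.000829), and both calls were kept in all 12 alternative settings run. It was the only member called between AdipoqTraced and CD26, at 1.66 (SE 0.34, adjusted p = 0.0121). That call was lost in 6 of 12 alternative settings, with log2 differences of 1.18 to 1.72 and adjusted p up to 0.132 in those 6, among them without AdipoqTraced replicate 1 or either CD26 library. Summed pericyte and smooth muscle markers were 432 and 307 CPM in AdipoqTraced, 169 and 244 CPM in CD26, and 483 and 325 CPM in Adipocyte. Of the 8, 2 were called higher and 0 lower in AdipoqTraced than in CD26. Abcc9, of the same list, stood lower in AdipoqTraced, at 15.1 and 52.9 CPM against 65.9 and 103 CPM in CD26. Myh11 was at 0 in 1 CD26 library, and the part of these cells in the Pdgfrb difference was not tested.

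The second set showed opposite orders of the receptors. Pdgfra stood at 117 and 110 CPM in CD29, 161 and 107 CPM in DN, 305 and 229 CPM in AP_CD9High and 290 and 264 CPM in AP_CD9Low. CD29 and DN overlapped each other, the AP groups overlapped each other, and every AP library lay above every CD29 and DN library. The differences from AP were -1.26 in CD29 (SE 0.39, adjusted p = 0.0839) and -1.02 in DN (SE 0.38, adjusted p = 0.142). With only the 8 libraries of this set in the fit, both were called, at -1.29 (adjusted p = 0.00429) and -0.99 (adjusted p = 0.0114). Fibroblast markers were called lower in 5 of 6 cases in CD29 and 4 of 6 in DN against AP, with sums of 60822.9 to 67594.7 CPM in CD29, 68468.4 to 79179.5 CPM in DN and 136051.9 to 148929 CPM in AP. Their part was not tested.

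Pdgfrb in the same libraries stood at 179 and 237 CPM in CD29, 82.6 and 107 CPM in DN, 96.9 and 63.5 CPM in AP_CD9High and 72.7 and 57.2 CPM in AP_CD9Low. CD29 stood above all other groups. AP_CD9High overlapped both DN and AP_CD9Low, and DN lay above AP_CD9Low. Pdgfrb rose by 1.52 in CD29 against AP (SE 0.27, adjusted p = 0.00232), a call kept in 13 of 14 alternative settings and lost without CD29 replicate 2, at an adjusted p of 0.0743. The difference between CD29 and DN was 1.13 (SE 0.32, adjusted p = 0.298, unadjusted p = 0.00291). DN and AP differed by 0.39 (SE 0.28, adjusted p = 0.56). Of 8 pericyte and smooth muscle markers, 6 were called higher in CD29 than in AP. Their sums were 247 and 307 CPM in CD29, 94.3 and 103 CPM in DN, 30.9 and 65.9 CPM in AP_CD9High and 29.6 and 75.8 CPM in AP_CD9Low. Rgs5, a pericyte gene, stood at 108 and 102 CPM in CD29 and at 0 to 1.95 CPM in AP, and Myh11 was at 0 in all AP libraries. Other pericyte genes of the list did not follow: Kcnj8 stood at 12.4 and 9.91 CPM in CD29 and 9.73 to 46.6 CPM in AP, and Abcc9 at 10.5 and 11.1 CPM in CD29 and 11.3 to 23.0 CPM in AP. The part of pericytes in the Pdgfrb difference was not tested.

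**Figure D3:**
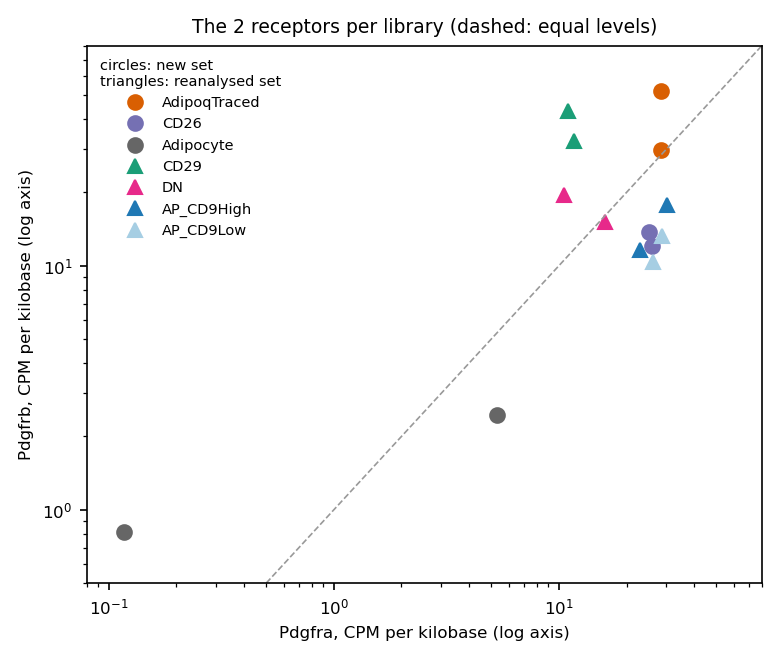
Pdgfrb level against Pdgfra level in CPM per kilobase of exon, both axes logarithmic, with 1 point per library colours for the groups, circles for the first set, triangles for the second, and a dashed line at equal levels. The CD29 libraries lie on the Pdgfrb side, with Pdgfra at 26.4% and 20.2% of receptor RNA, and the AP_CD9Low libraries lie on the Pdgfra side, at 68.6% and 71.6%.

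Per kilobase of exon, the balance of the receptors differed between groups. Pdgfra made up 35.2% and 48.9% of receptor RNA in AdipoqTraced, 68.2% and 64.5% in CD26, and 12.6% and 68.3% in Adipocyte, where replicate 1 rested on 5 Pdgfra counts. It made up 26.4% and 20.2% in CD29, 51.6% and 35.2% in DN, 63.2% and 66.4% in AP_CD9High and 68.6% and 71.6% in AP_CD9Low. CD29 and AdipoqTraced therefore had more Pdgfrb than Pdgfra RNA per kilobase in both libraries, and CD26 and both AP groups had more Pdgfra. With the longest transcript as the length, AdipoqTraced replicate 2 had 58.2% Pdgfra. The 2 receptors together summed to 80.5 and 58.3 CPM per kilobase in AdipoqTraced, 38.1 and 38.9 in CD26, and 0.932 and 7.76 in Adipocyte. The 4 ligands together summed to 23.4 and 12.4 CPM per kilobase in AdipoqTraced, 15.3 and 10.3 in CD26, and 10.4 and 6.22 in Adipocyte. In the second set the receptors summed to 44.3 and 54.3 in CD29, 31.1 and 30.3 in DN, and 34.5 to 48.1 in AP. The ligands summed there to 25.5 and 28.2, 17.4 and 24.0, and 15.0 to 19.8 in the same order. Receptor RNA therefore exceeded ligand RNA in every library except Adipocyte replicate 1.

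**Figure D4:**
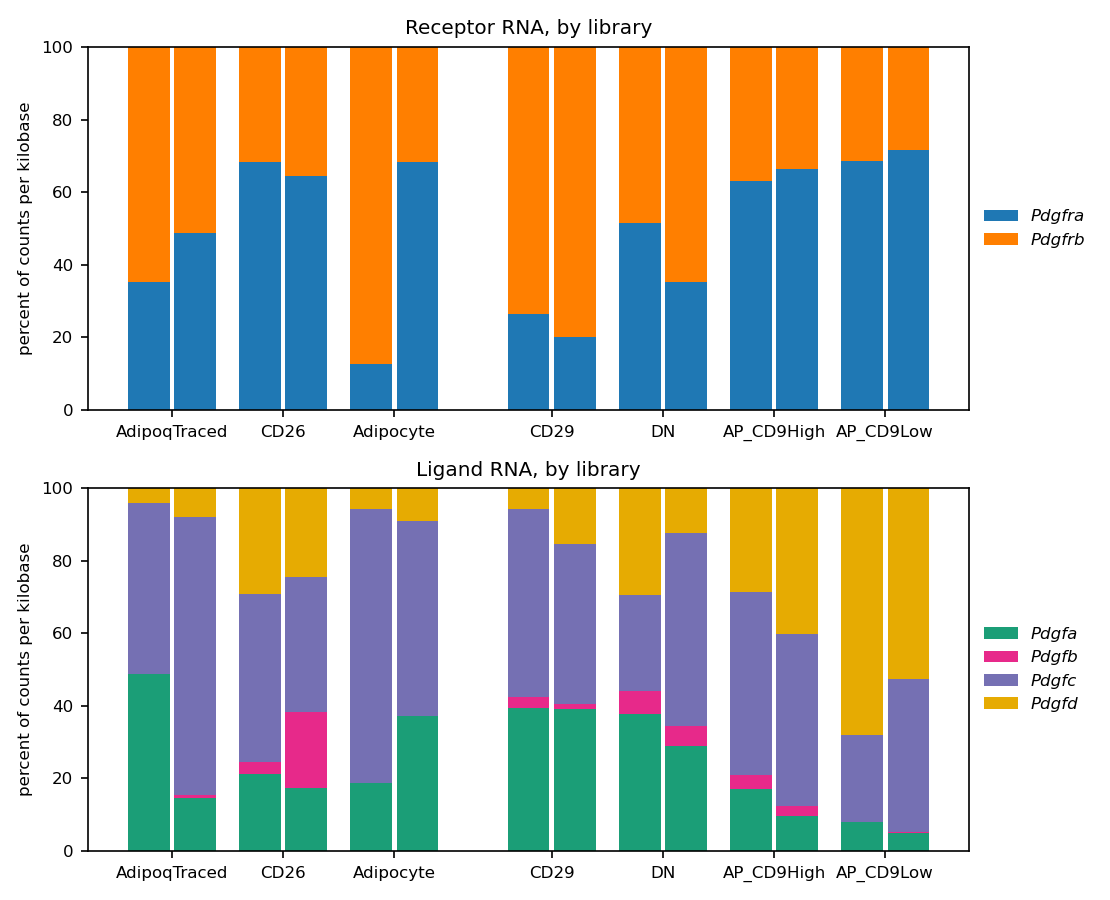
Share of each receptor in receptor RNA (top) and of each ligand in ligand RNA (bottom), in percent of counts per kilobase of exon (y axes, stacked from 0), with 1 bar for each of the 14 libraries. In the ligand panel, Pdgfd holds 67.9% and 52.7% in AP_CD9Low, and Pdgfa holds 39.5% and 39.0% in CD29.

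The leading ligand RNA per kilobase was Pdgfc in most libraries. It made up 47.0% and 76.4% of ligand RNA in AdipoqTraced, 46.1% and 37.3% in CD26, and 75.6% and 53.7% in Adipocyte. It made up 52.0% and 44.1% in CD29, 26.6% and 53.1% in DN, 50.3% and 47.4% in AP_CD9High and 24.0% and 42.1% in AP_CD9Low. Pdgfa led in AdipoqTraced replicate 1, at 48.9%, and in DN replicate 1, at 37.7%, and Pdgfd led in both AP_CD9Low libraries. With the longest transcript as the length, Pdgfc led in AP_CD9Low replicate 2, at 50.0% against 43.6% for Pdgfd. Over the 8 libraries of the second set, on log2 CPM, Pdgfa went with Pdgfrb at a Pearson r of 0.86 and against Pdgfra at -0.9, and Pdgfra against Pdgfrb at -0.75. Over the 6 libraries of the first set, Pdgfra and Pdgfrb went together at 0.89. These correlations describe libraries that share their groups and, in the first set, the low Adipocyte pair.

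The genes around the family were described from 4 lists of the pathway. Of 11 tested genes for ligand processing and binding, 8 rose and 0 fell in AdipoqTraced against Adipocyte, 72.7% of the list against 10.4% of all genes. Their median log2 difference was 2.38, against 0.19 for all genes. Plat, the protease that activates the PDGFC ligand, stood at 390 and 327 CPM in AdipoqTraced against 4.7 and 15.4 CPM in Adipocyte, a rise of 5.1 (SE 0.37, adjusted p = 8.68e-08). Plau, the protease named above for Pdgfd, rose by 4.27 (SE 0.86, adjusted p = 0.00243). Sparc, which binds PDGF chains, rose by 1.65 (SE 0.17, adjusted p = 3.81e-06). In CD26 against Adipocyte 5 of the 11 rose and 0 fell, 45.5% against 10.6% of all genes, with Plat at 255 and 304 CPM in CD26. In AdipoqTraced against CD26 3 of the 11 were called, 27.3% against 3.86% of all genes. Of these, Furin and Nrp2 rose and Pcsk5, a furin-type protease, fell, the last at 207 and 79.9 CPM in AdipoqTraced against 565 and 367 CPM in CD26 (log2 difference -1.7, SE 0.38, adjusted p = 0.0222).

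In the second set the same list gave 1 gene higher and 4 lower in CD29 against AP, 45.5% of the list against 4.39% of all genes. DN against AP gave 1 higher and 2 lower, 27.3% against 6.75%. Nrp2, a co-receptor best known for VEGF and semaphorin ligands, rose by 2.45 in CD29 (SE 0.34, adjusted p = 0.000264) and by 3.18 in DN (SE 0.33, adjusted p = 1.41e-05). It stood at 40.3 and 53.7 CPM in CD29, 70.3 and 85.8 CPM in DN and 7.04 to 11.0 CPM in AP. Plat fell by 1.06 in CD29 (SE 0.22, adjusted p = 0.00919) and fell by 1.23 in DN (SE 0.23, adjusted p = 0.00197), and Sparc fell by 0.85 in CD29 and fell by 0.88 in DN.

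Of the 33 genes that act directly below the receptors, 1 rose and 3 fell in AdipoqTraced against Adipocyte, 12.1% of the list against 10.4% of all genes. In CD26 against Adipocyte 0 rose and 2 fell, 6.06% against 10.6%. Pik3r1, the regulatory subunit of phosphoinositide 3-kinase that docks on activated receptors, stood at 64.0 and 83.3 CPM in AdipoqTraced, 138 and 141 CPM in CD26, and 472 and 459 CPM in Adipocyte. It fell by 2.66 in AdipoqTraced (SE 0.33, adjusted p = 3.1e-05) and fell by 1.74 in CD26 (SE 0.32, adjusted p = 0.00124). In AdipoqTraced against CD26 and in DN against AP, 0 of 33 were called in the edgeR test, against 3.86% and 6.75% of all genes. The adaptor Nck2 was the single call in CD29 against AP, at 1.54 (SE 0.42, adjusted p = 0.0491), or 3.03% of the list against 4.39% of all genes.

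Of 17 negative regulators, 2 rose and 0 fell in AdipoqTraced against Adipocyte, 11.8% of the list against 10.4% of all genes. In CD26 against Adipocyte 4 rose and 1 fell, 29.4% against 10.6%, and in AdipoqTraced against CD26 1 rose and 0 fell, 5.88% against 3.86%. Both CD29 and DN against AP gave 1 higher and 2 lower, 17.6% of the list against 4.39% and 6.75% of all genes. Dusp6, a phosphatase of ERK kinases, stood at 33.4 and 32.3 CPM in CD29, 39.5 and 55.9 CPM in DN and 4.56 to 10.4 CPM in AP. It rose by 2.12 in CD29 (SE 0.38, adjusted p = 0.00253) and by 2.65 in DN (SE 0.37, adjusted p = 0.000215). Errfi1, a feedback inhibitor best known for the EGF receptor, fell by 1.57 in CD29 and fell by 1.16 in DN (SE 0.21 and 0.2, adjusted p = 0.000175 and 0.0014).

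The 20 genes known to respond to PDGF in cultured fibroblasts also respond to other stimuli, and several are immediate early genes. In this list 8 rose and 1 fell in AdipoqTraced against Adipocyte, 9 of 20 called against 10.4% of all genes, and 9 rose and 3 fell in CD26 against Adipocyte, 60.0% against 10.6%. In AdipoqTraced against CD26 1 rose and 2 fell, 15.0% against 3.86%. In CD29 against AP 0 rose and 5 fell, 25.0% against 4.39%, and in DN against AP 0 rose and 6 fell, 30.0% against 6.75%. Ccl2, a monocyte chemokine, stood at 944 and 662 CPM in AdipoqTraced, 1173.6 and 1312.6 CPM in CD26, and 159 and 156 CPM in Adipocyte. It rose by 2.35 in AdipoqTraced (SE 0.25, adjusted p = 5.28e-06) and by 2.98 in CD26 (SE 0.25, adjusted p = 4.75e-07). It stood at 524 and 337 CPM in CD29 and 642 and 589 CPM in DN, against 1373.5 to 1494.9 CPM in AP, and fell by 1.73 in CD29 and fell by 1.21 in DN (SE 0.21 and 0.2, adjusted p = 7.86e-05 and 0.00109). Myc, a transcription factor of growth, fell by 1.7 in CD29 (SE 0.24, adjusted p = 0.000348) and fell by 1.68 in DN (SE 0.24, adjusted p = 0.000237). In CD29 against DN and in AP_CD9High against AP_CD9Low, 0 genes of any of the 4 lists were called in the edgeR test.

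The genes whose levels ran most like each member were taken by Pearson r over the 14 libraries on log2 CPM, after the mean of each set was subtracted, among 10754 genes. For Pdgfa they were Myo1d (0.906), Prkcd (0.886) and Tagln (0.882). For Pdgfb they were Sfswap (0.92), Gas2l3 (0.918) and Map3k2 (0.895), on few Pdgfb counts. Cyth2 (0.859), Tmem175 (0.844) and Smarca4 (0.843) came first for Pdgfc, and Cd47 (0.891), Thbd (0.883) and Acsl4 (0.88) for Pdgfd. Pdgfra ran with C1qtnf6 (0.984), Aebp1 (0.983) and Lama2 (0.978), and Pdgfrb with Uck2 (0.986), Arhgap31 (0.971) and Ccnb2 (0.969). All share the same libraries, and for both receptors the low Adipocyte pair weighs heavily. Within the 8 libraries of the second set, r was 0.803 for C1qtnf6 with Pdgfra and 0.929 for Uck2 with Pdgfrb.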

How the data were processed

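RNA was measured by sequencing, and the deposited file gives unnormalised whole-number counts of reads for each gene in 14 libraries, as its values show. CASAVA 1.8.2, HISAT2 2.1, StringTie 1.3.3b, DESeq2 and the build mm10 appear in the submitters' processing notes without a role or order, and the labels' protocols name the SMARTer Ultra Low RNA kit for small inputs. The annotation, the use of strand and any filter on reads: not given in the sources used here. Symbols, coordinates and exon lengths came from GENCODE M21, which matched 52403 of 52636 identifiers with version numbers ignored. 0 columns belonged to other samples.

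After filterByExpr by group, 18394 genes remained. The edgeR 4.0.16 quasi-likelihood test (two-sided; glmQLFTest after a robust glmQLFit, in R 4.3.3) was fitted to counts under TMM scaling (trimmed mean of M values) of all 14 libraries with 1 coefficient per group, leaving 7 residual degrees of freedom. AP is the mean of the AP_CD9High and AP_CD9Low coefficients, weighted 0.5 each. Its 4 libraries count as separate samples, although the descriptions give both groups the numbers 2 and 4. CD29 also has the numbers 2 and 4 there, and DN has 2 and 3. Whether equal numbers mark the same animal is not stated. SE was approximated as the size of the log2 fold change over the root of its F statistic. Benjamini-Hochberg adjustment ran over all tested genes, and calls were made at 0.05. Correlations used a prior count of 2. The fit was also run on simulated counts, with the same mean level per gene in all groups apart from genes changed on purpose. That setting lacks the composition differences of these libraries, so it cannot show how the fit performs under them.

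The members, gene lists and tests were chosen with earlier results of these data known. Named genes were all members, the 2 called genes of each list and comparison with the smallest p at 10 CPM or more, and the 3 most similar genes per member. Plau, Furin, Rgs5, Myh11, Kcnj8, Abcc9, Pf4, Itga2b, the antisense neighbour of Pdgfa, Myc and Dusp6 in CD29 against AP, Ccl2 in DN against AP, and Plat in both comparisons with AP were chosen after their values were seen, and not every gene under the rule is printed. Floors of 3 counts cover counting error only, since amplified reads without molecular identifiers are not independent molecules. Alternatives changed the scaling, the low-count filter, the libraries in the fit, the tool (DESeq2 1.42.0), the quasi-likelihood method, a replicate block, the exon length and each library in turn.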

Additional observations from a re-analysis of the deposited data

How the results depend on the processing

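Over all alternatives to the members' log2 differences, 467 values kept direction and side of the threshold, 26 lost a call, 15 gained one and 20 turned direction; causes were not tested. Members called against Adipocyte with library size alone were 4 (AdipoqTraced) and 5 (CD26), beside 8195 and 6501 of 18394 genes. With legacy = TRUE, the older quasi-likelihood method, AdipoqTraced against Adipocyte gave 1 member, beside 2069 of 18394 genes. DESeq2 gave 4 members in CD26 against Adipocyte, beside 3713 of 14262 genes. AdipoqTraced against CD26 gave 3 members by DESeq2, beside 1566 of 15377 genes. It gave 0 members with legacy = TRUE, with the replicate block by description number and with its own set alone. The genes called there were 342 of 18394, 290 of 18394 and 75 of 15542. DN against AP gave 1 member without a filter, by DESeq2 and with the replicate block by title number. The genes called there were 1063 of 28759, 1393 of 15377 and 1140 of 18394. It gave 0 members with legacy = TRUE and the block by description number, beside 620 and 422 of 18394 genes. Leaving out 1 library gave 2 to 3 members (AdipoqTraced against Adipocyte), 0 to 2 (AdipoqTraced against CD26) and 0 to 1 (DN against AP).

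Genes called with library size alone were 8195 in AdipoqTraced against Adipocyte, 6501 in CD26 against Adipocyte, 1166 in AdipoqTraced against CD26 and 17 in CD29 against DN, where DESeq2 size factors also gave 17. The share of higher calls moved with it to 97%, 95.4%, 88%, 76.9% and 81.3% in AdipoqTraced against Adipocyte, CD26 against Adipocyte, AdipoqTraced against CD26, CD29 against AP and DN against AP, from 53.7%, 51.2%, 61.4%, 57.4% and 67.7%. It was 29.4% against 18.2% in CD29 against DN. DESeq2 gave 3778, 3713 and 1566 genes in the first 3 comparisons, 145 in CD29 against DN and 91 in AP_CD9High against AP_CD9Low. With legacy = TRUE the counts were 342 (AdipoqTraced against CD26), 383 (CD29 against AP), 620 (DN against AP), 2 (CD29 against DN) and 2 (AP_CD9High against AP_CD9Low). AdipoqTraced against CD26 gave 422 without a filter and 75 with its own set alone, where CD29 against DN gave 51 and AP_CD9High against AP_CD9Low 2. Deviations of same-numbered libraries from their group means correlated at -0.03 to 0.05. The check took only the first library of each group, where both numberings give the same pairs. It cannot show whether same-numbered libraries came from the same animal. The replicate block by description number gave 290, 422, 5 and 0 genes in AdipoqTraced against CD26, DN against AP, CD29 against DN and AP_CD9High against AP_CD9Low, and the block by title number gave 1 in the last. Leaving out 1 library gave 960 to 1986 genes (AdipoqTraced against Adipocyte), 964 to 1404 (CD26 against Adipocyte), 69 to 878 (AdipoqTraced against CD26), 340 to 612 (CD29 against AP), 670 to 985 (DN against AP), 5 to 15 (CD29 against DN) and 0 to 5 (AP_CD9High against AP_CD9Low).

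None of the reversed differences had been called. Leaving out 1 library gave, in AdipoqTraced against Adipocyte, -0.24 to 2.41 for Pdgfa and 0 to 6.27 for Pdgfb, and -0.52 to 2.16 for Pdgfa in AdipoqTraced against CD26. In CD26 against Adipocyte it gave -0.24 to 0.63 for Pdgfa and -0.49 to 0.82 for Pdgfc, with -0.43 without Adipocyte replicate 2. That Pdgfc value, 0 in the main test, was -0.04 with DESeq2 size factors, -0.09 by DESeq2, -0.04 with legacy = TRUE, -0.02 with either replicate block and -0.01 with its own set alone. In DN against AP, Pdgfc was -0.36 with the replicate block by description number and -0.58 to 0.87 without 1 library. The same omissions gave -1.49 to 0.09 for Pdgfd and -0.5 to 0.1 for Pdgfra in CD29 against DN. In AP_CD9High against AP_CD9Low they gave -0.05 to 1.16 for Pdgfc, -0.29 to 0.16 for Pdgfra, 0.01 among them, and -0.05 to 0.6 for Pdgfrb. With the longest transcript as length, mean Pdgfra shares of receptor RNA were 74.1% in CD26, 30.6% in CD29, 72.8% in AP_CD9High and 77.2% in AP_CD9Low. Depth limits Pdgfb and all Adipocyte levels, where 1 count is worth 0.195 to 0.235 CPM.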
